A study of Mus musculus with 2 samples.

Results

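Endoplasmic reticulum (ER) chaperone and stress genes were compared between mouse macrophages given interleukin 10 (IL-10) and untreated macrophages. The set holds 45 genes chosen by name for their role in protein folding, translocation, ER-associated degradation and the unfolded protein response. Earlier results of these data were known when the genes were chosen. A gene's value was the number of reads spliced across its annotated introns, and 42 of the 45 genes had at least 20 such reads over both libraries, of 8358 genes that did. Chaperones and oxidoreductases (18 genes) were set against regulators of the unfolded protein response (12 genes), and the remaining 15 genes act in glycan control, degradation or translocation.

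The IL-10 group was 1 library of macrophages that received 100 ng/ml of IL-10 over 4 h. The untreated group was 1 library of macrophages that its title gives as untreated, while its protocol text repeats that of the treated cells, so the groups rest on the titles. Both came from male C57BL/6JJcl mice. The cells were washed out of the peritoneum 3 days after thioglycolate, an irritant broth that draws in inflammatory macrophages, and those still attached after 24 h of culture were used. All cells therefore share an elicited and cultured state, and the labels do not say how many animals were pooled. The recorded insert size was 188 bp for the IL-10 library and 197 bp for the untreated one. With 1 library each, this difference cannot be told apart from treatment, and its part in the ratios was not tested. Each ratio is the gene's share of spliced reads in the IL-10 library over its share in the untreated one. Its 95% interval covers counting error only, so no ratio was checked against replicates.

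Proteins that enter the ER are folded by chaperones, receive disulfide bonds and glycans there, and are sent back to the cytosol for degradation when folding fails. Unfolded protein is sensed by IRE1 (the product of Ern1), which splices the Xbp1 messenger, by PERK (Eif2ak3), which slows translation and favours Atf4, and by Atf6, which is cut in the Golgi to free a transcription factor. These factors induce chaperone and degradation genes, and secretory cells, activated macrophages among them, use this system.

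The libraries held 3998954 spliced reads (IL-10) and 4035991 (untreated), of which 96.0% (IL-10) and 95.8% (untreated) lay on introns of single named genes. The 45 genes took 1.01% of these reads in IL-10-treated cells and 1.02% in untreated cells, on 498 introns. Known targets of IL-10 were higher in the IL-10 library: Bcl3 had 330 reads there against 129 in untreated cells (ratio 2.58, 2.10 to 3.18), Stat3 1516 against 687 (2.22, 2.03 to 2.44), Il4ra 689 against 251 (2.77, 2.39 to 3.21) and Sbno2 1810 against 779 (2.34, 2.15 to 2.55). The receptor gene Il10ra had 204 reads in treated and 210 in untreated cells (0.979, 0.803 to 1.19), Il10rb had 1049 in treated and 961 in untreated cells (1.10, 1.01 to 1.20), and Socs3 had no matched intron. Of 12 macrophage markers 10 were measured, of which 4 had an interval above 1 (12.9% of all genes) and 4 had one below (13.1%). They summed to 66709 reads in IL-10-treated cells and 81775 in untreated cells. The lysozyme gene Lyz2 held the most reads, 31849 in treated and 45047 in untreated cells. Msr1 went the other way, with 3370 in treated and 1867 in untreated cells (1.82, 1.72 to 1.925).

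Between the libraries, most ER genes differed little. Of the 42 measured genes, 32 had a log2 ratio within 0.32 of 0 in either direction, as did 65.7% of all genes. A gene was called where its share differed 2-fold or more, in either direction, and the interval left out 1. None of the 42 was called higher (1.75% of all genes were), and 1, the chaperone cofactor Sdf2l1, was called lower (1.5% of all genes). At a log2 fold of 0.32, 4 were called higher (8.39% of all genes) and 3 lower (8.44% of all genes). At any size, the interval lay above 1 for 6 genes (12.9% of all genes) and below 1 for 9 (13.1% of all genes). The 6 were Ern1, Manf, Herpud1, Uggt1, Sec63 and Atf6, and the 9 were Sdf2l1, Atf4, Ero1l, Hspa5, Sec62, Sel1l, Pdia6, P4hb and Hsp90b1. The median log2 ratio was 0.01 over the 42 genes and 0.00 over all genes.

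**Figure D1:**
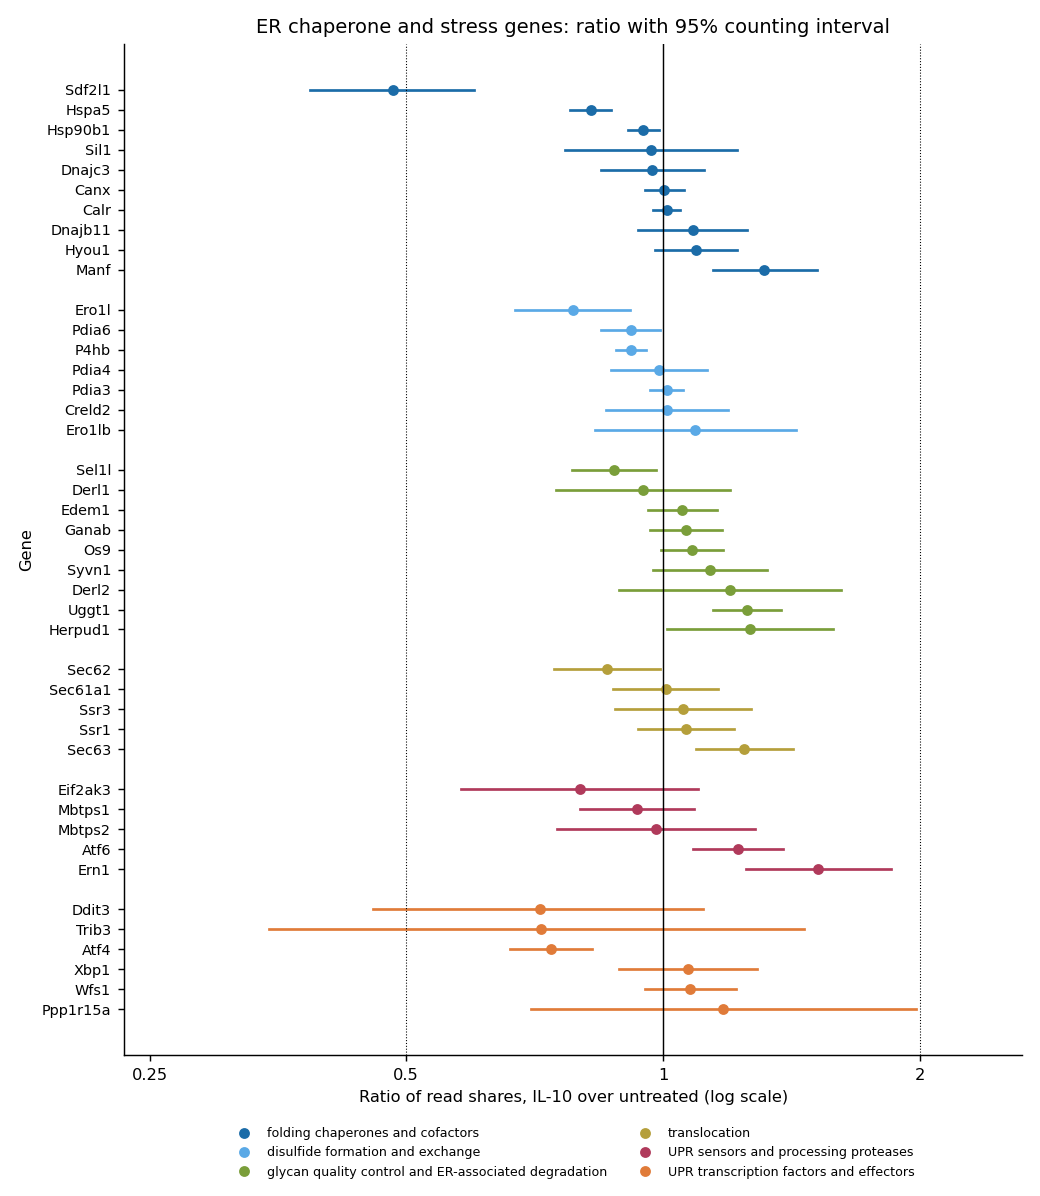
Ratio of read shares (log scale, IL-10 over untreated) of the 42 measured genes, grouped by role, with bars for the 95% counting interval and dotted lines at 2-fold. Sdf2l1, at 0.482, is the one point beyond a dotted line, and Ern1, at 1.52, lies farthest to the right.

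The medians of chaperones and of regulators both lay near 0. Of 17 measured chaperones and oxidoreductases, 1 had an interval above 1 (12.9% of all genes) and 6 had one below (13.1%). Their median log2 ratio was -0.02. Intervals narrow with depth, and the shares of all genes are not matched for depth. Among genes with reads within 2-fold, 0.0345% had a ratio as low as Sdf2l1 and 43.2% one as low as Hsp90b1. Of 11 measured regulators, 2 had an interval above 1 and 1 had one below, against the same shares of all genes, and the median was -0.03. Summed reads of the chaperone class were 28468 in IL-10-treated cells and 29859 in untreated cells (ratio 0.960, 0.945 to 0.976). Those of the regulators were 2795 in treated and 2815 in untreated cells (ratio 1.0, 0.949 to 1.05), of which Atf4 held 553 in treated and 754 in untreated cells. Atf4 was the regulator with the most reads and the only one with an interval below 1, and without it the regulators' summed ratio was 1.10. The chaperone sum is given for the full class only, and no sum is given without Ern1, the measured regulator with the highest ratio. The 1.10 therefore depends on the gene left out and is not set against the chaperone sum. The ratios of single regulators were spread from 0.717 for Ddit3 to 1.52 for Ern1, and 6 of the 11 lay within 0.32 of 0 on the log2 scale, as did 14 of the 17 chaperones. These sums compare the mixtures of cells in the libraries, in which fewer cells of a type and less RNA per cell cannot be told apart.

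**Figure D2:**
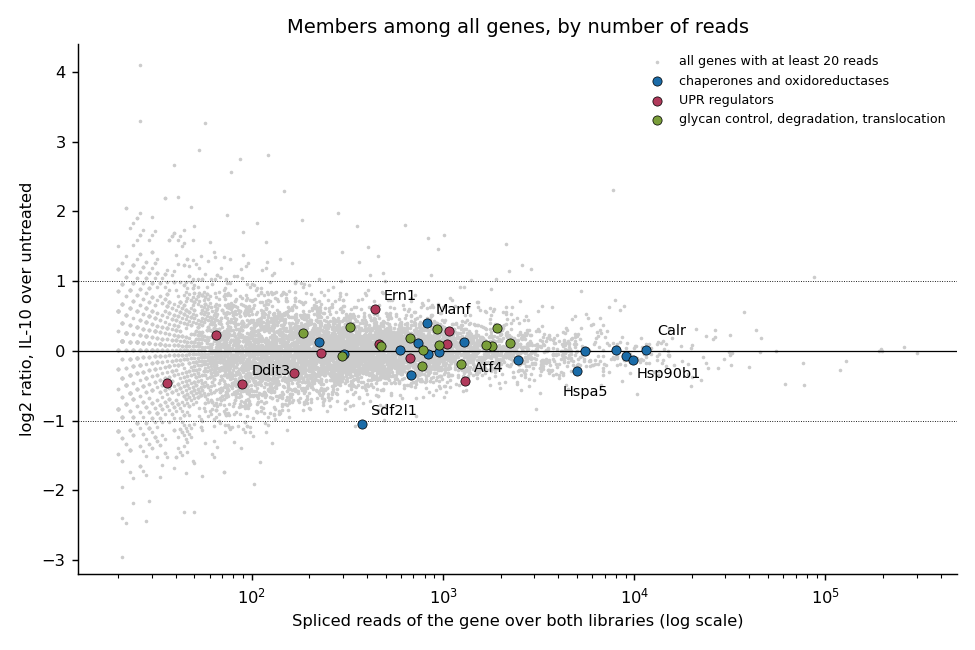
Log2 ratio (IL-10 over untreated) of every gene with at least 20 reads, against its spliced reads over both libraries on a log scale. The 42 ER genes are the outlined points, and Sdf2l1 lies at the lower edge of the genes with a like number of reads.

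Sdf2l1 encodes an ER protein that joins the chaperone cycle of Hspa5 together with Dnajb11. It had 122 reads in IL-10-treated cells and 255 in untreated cells, a 2.08-fold lower share (1.67 to 2.6). Both of its introns, between chr16:17130882 and chr16:17132216 on the minus strand (mm9), had fewer reads in the IL-10 library. The first intron had 82 reads in IL-10-treated cells and 185 in untreated cells (ratio 0.446, 0.340 to 0.582), and the second had 40 in treated and 70 in untreated cells (0.576, 0.380 to 0.861). Of 2899 other genes with reads within 2-fold of its own, 1 (0.0345%) had a ratio as low. Among all 4417 genes with at least 200 reads, 2 (0.0453%) were called lower, Sdf2l1 included. The exon joins that these reads crossed, with 15 bases on each side (GENCODE M21 transcripts), are shown because the call rests on them.
Sdf2l1 join 1: tcaaatacggatctggcagcggccaacagt
Sdf2l1 join 2: ctatccaacaaccaggaggtgagtgctttt

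The bases before the Sdf2l1 start are printed with that call. In the RefSeq promoter table (GRCm38.p6), chr16:17132384-17132633 on the minus strand held 3 CCAAT boxes and 3 CCACG elements on either strand, in capitals (ATTGG and CGTGG on the opposite strand). No pair of them was spaced as in the ER stress element ERSE, a CCAAT box and CCACG held 9 bases apart.
Sdf2l1 promoter: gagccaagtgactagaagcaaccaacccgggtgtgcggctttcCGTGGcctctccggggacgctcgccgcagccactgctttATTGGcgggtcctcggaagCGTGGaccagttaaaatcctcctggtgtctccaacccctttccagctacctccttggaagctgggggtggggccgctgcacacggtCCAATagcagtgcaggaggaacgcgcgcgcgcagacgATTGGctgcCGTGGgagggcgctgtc

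Hspa5 encodes BiP, the main ATP-driven chaperone of the ER and the protein that holds the stress sensors inactive. It had 2262 reads in IL-10-treated cells and 2770 in untreated cells (ratio 0.823, 0.778 to 0.870), with 6 of 8 introns lower. The lowest ratio was on the first intron, with 469 reads in IL-10-treated cells and 710 in untreated cells (0.665, 0.591 to 0.749). The eighth had 328 in treated and 323 in untreated cells (1.02, 0.875 to 1.20), an interval apart from that of the first. Of 338 other genes with reads within 2-fold, 9.47% had a ratio as low. Hsp90b1, the ER member of the Hsp90 family, had 4369 reads in treated and 4640 in untreated cells (0.949, 0.910 to 0.989). Its direction changed along the transcript: introns of the 5' portion had 1408 reads in IL-10-treated cells and 1316 in untreated cells, and those of the 3' portion had 2447 in treated and 2787 in untreated cells. The lectin chaperones Calr and Canx had intervals that included 1. Calr had 5788 reads in IL-10-treated cells and 5772 in untreated cells (1.01, 0.974 to 1.05), and Canx had 2766 in treated and 2777 in untreated cells (1.003, 0.952 to 1.06). With a median of 622 reads per intron in treated and 628 in untreated cells, Calr stood at percentile 99.3 of all genes on that scale, and Hspa5 (242 in treated and 276 in untreated cells) at 98.1.

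**Figure D3:**
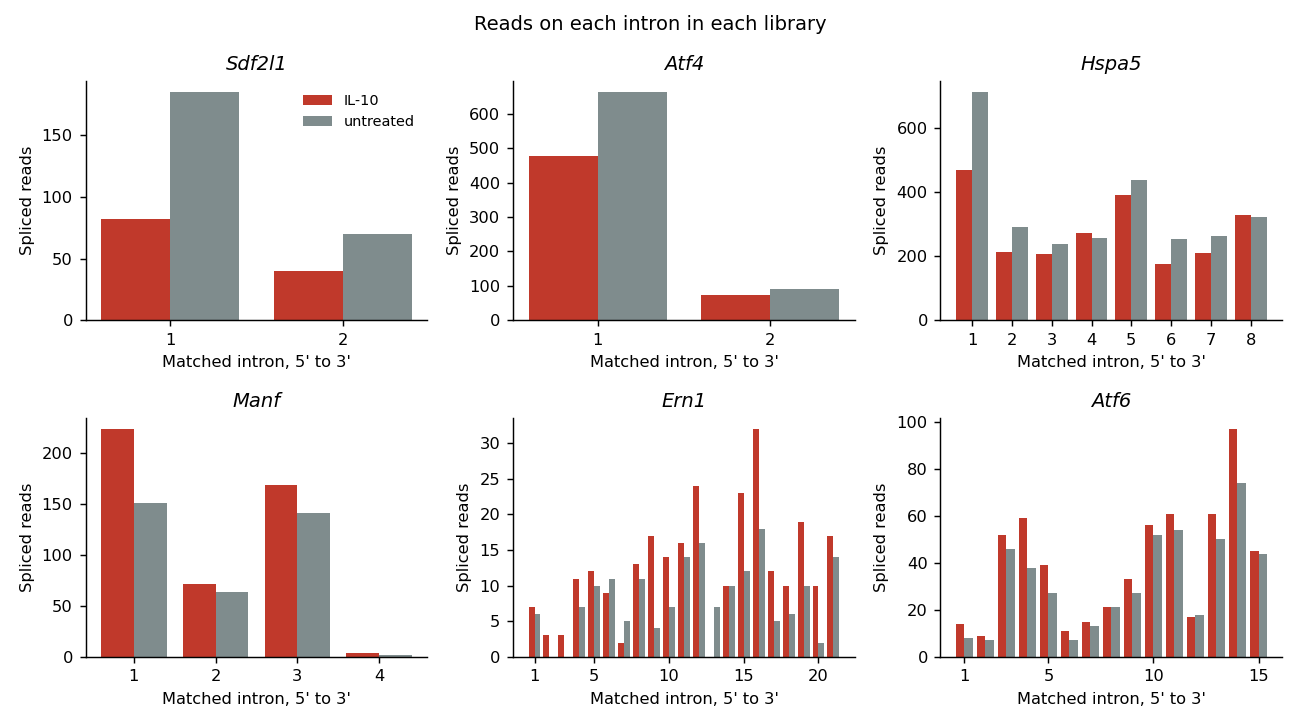
Spliced reads on each matched intron, in order from the 5' end, of 6 genes, with IL-10-treated cells in red left of untreated cells in grey. Both introns of Sdf2l1 and of Atf4 are lower in the IL-10 library, and 14 of 15 introns of Atf6 are higher by share.

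Among the cofactors, Manf alone had an interval above 1. It encodes a small ER protein that binds Hspa5 and is secreted under stress. Manf had 466 reads in IL-10-treated cells and 357 in untreated cells (ratio 1.32, 1.14 to 1.51), with all 4 introns higher, led by the first with 223 in treated and 151 in untreated cells (1.49, 1.20 to 1.84). Of 2112 other genes with reads within 2-fold, 5.54% had a ratio as high. Hyou1, which exchanges the nucleotide of Hspa5, had 666 reads in treated and 614 in untreated cells (1.09, 0.978 to 1.22). Sil1, another exchange factor, had 148 in IL-10-treated cells and 154 in untreated cells (0.968, 0.767 to 1.22). The J-domain cofactors Dnajb11 and Dnajc3 had 384 reads in treated and 357 in untreated cells (1.08, 0.936 to 1.255) and 410 in treated and 425 in untreated cells (0.972, 0.846 to 1.12). The J-domain gene Dnajb9 had no intron placed by the main rule. Placed by the offset of a flanking gene, it had 6 reads in IL-10-treated cells and 8 in untreated cells (0.756, 0.216 to 2.48), too few to show a difference of this size.

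Of 7 measured genes of disulfide formation, 3 had an interval below 1 (13.1% of all genes) and none had one above (12.9%), and the median log2 ratio was -0.02. Ero1l, the oxidase that recharges protein disulfide isomerases, had 298 reads in IL-10-treated cells and 383 in untreated cells (ratio 0.784, 0.671 to 0.914), with 10 of 12 introns lower. Its relative Ero1lb had 117 in treated and 108 in untreated cells (1.09, 0.833 to 1.43), an interval that overlaps that of Ero1l. The isomerase P4hb, also a subunit of collagen prolyl hydroxylase, had 4696 reads in IL-10-treated cells and 5156 in untreated cells (0.918, 0.882 to 0.955). Pdia6, an isomerase that acts on the stress sensors, had 1175 in treated and 1291 in untreated cells (0.917, 0.846 to 0.993). Pdia3, the isomerase of glycoproteins, had 4034 in treated and 4025 in untreated cells (1.01, 0.966 to 1.06), Pdia4 had 469 in treated and 478 in untreated cells (0.988, 0.868 to 1.13), and the stress-induced gene Creld2 had 298 in treated and 297 in untreated cells (1.01, 0.858 to 1.19). The class summed to 11087 reads in IL-10-treated cells and 11738 in untreated cells (0.951, 0.927 to 0.977). Of 771 other genes with reads within 2-fold of Pdia6, 26.8% had a ratio as low, and for P4hb this was 36.0% of 150. For Ero1l it was 6.92% of 2341.

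Of 9 measured genes of glycan quality control and degradation, 7 had a ratio over 1 (50% of all genes did), 2 an interval above 1 (12.9% of all genes) and 1 an interval below 1 (13.1%), with a median log2 ratio of 0.11. Uggt1, the enzyme that re-tags incompletely folded glycoproteins for another folding round, had 1064 reads in IL-10-treated cells and 854 in untreated cells (ratio 1.26, 1.15 to 1.37). It was higher on 30 of 39 introns. Herpud1, a membrane protein of the degradation complex, had 182 in treated and 145 in untreated cells (1.26, 1.01 to 1.58), with 6 of 7 introns higher. Sel1l, the adaptor of that complex, was lower with 580 reads in IL-10-treated cells and 667 in untreated cells (0.876, 0.782 to 0.981), on 14 of 19 introns. Its partner ligase Syvn1 had 356 in treated and 316 in untreated cells (1.14, 0.973 to 1.33). Among other genes with reads within 2-fold, 8.57% had a ratio as high as Uggt1 and 10.8% one as high as Herpud1. For Sel1l, 16.8% had one as low.

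The other degradation genes had intervals that included 1. The derlins Derl1 and Derl2, channel proteins of the complex, had 143 reads in IL-10-treated cells and 152 in untreated cells (0.948, 0.749 to 1.20), and 101 in treated and 85 in untreated cells (1.20, 0.888 to 1.62). The mannosidase-family gene Edem1 had 926 in treated and 886 in untreated cells (1.05, 0.959 to 1.16). Ganab, the catalytic subunit of glucosidase II, had 863 in treated and 817 in untreated cells (1.06, 0.966 to 1.17). The lectin gene Os9 had 1162 in treated and 1083 in untreated cells (1.08, 0.994 to 1.18). Summed over the 9 genes, there were 5377 reads in IL-10-treated cells and 5005 in untreated cells (1.08, 1.04 to 1.12).

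In the translocation machinery, the partners Sec62 and Sec63, which assist the channel in taking up finished proteins, lay on opposite sides of 1. Sec63, a J-domain protein, had 516 reads in IL-10-treated cells and 417 in untreated cells (ratio 1.246, 1.09 to 1.42), with 14 of 17 introns higher. Sec62 had 359 in treated and 421 in untreated cells (0.859, 0.744 to 0.991), with 6 of 7 introns lower. Among other genes with reads within 2-fold, 9.07% had a ratio as high as Sec63 and 16.4% one as low as Sec62. The channel subunit Sec61a1 had 394 reads in each library (1.01, 0.874 to 1.16), and Sec61b had 8 in treated and 9 in untreated cells, under the minimum of 20. The translocon-associated subunits Ssr1 and Ssr3 had 490 reads in IL-10-treated cells and 464 in untreated cells (1.06, 0.935 to 1.21), and 243 in treated and 232 in untreated cells (1.06, 0.878 to 1.27).

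Among the stress sensors, Ern1 and Atf6 were higher in the IL-10 library. Ern1 had 264 reads in IL-10-treated cells and 175 in untreated cells (ratio 1.52, 1.251 to 1.85), with 16 of 19 introns higher. Of 2835 other genes with reads within 2-fold, 2.33% had a ratio as high, and at a fold of 1.5 Ern1 was the one ER gene called higher (4.27% of all genes) and Sdf2l1 the one called lower (4.01% of all genes). Atf6 had 590 reads in treated and 486 in untreated cells (1.22, 1.08 to 1.38), with 14 of 15 introns higher by share. That count includes intron 8, with 21 reads in each library. Among 1730 other genes with reads within 2-fold of Atf6, 10.9% had a ratio as high. The introns of Atf6 lay between chr1:172640219 and chr1:172797780 (mm9, minus strand), those of Ern1 between chr11:106260069 and chr11:106348930 (minus strand). The third sensor, Eif2ak3, had 73 reads in IL-10-treated cells and 92 in untreated cells (0.799, 0.580 to 1.10). The proteases that cut Atf6, Mbtps1 and Mbtps2, had 322 reads in treated and 348 in untreated cells (0.932, 0.799 to 1.09), and 113 in treated and 116 in untreated cells (0.981, 0.751 to 1.28). The sensors differed in level: Atf6 had a median of 39 reads per intron in treated and 27 in untreated cells, Ern1 had 12 in treated and 10 in untreated cells, and Eif2ak3 had 6 in each library, where the median gene had 10.5 in IL-10-treated cells and 11 in untreated cells.

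Among the effectors of the response, Atf4 alone had an interval that left out 1. Atf4, the transcription factor whose translation PERK favours, had 553 reads in IL-10-treated cells and 754 in untreated cells (ratio 0.739, 0.661 to 0.826), on introns between chr15:80086116 and chr15:80087063 (mm9, plus strand). The first intron had 479 in treated and 663 in untreated cells (0.728, 0.646 to 0.820), and the second 74 in treated and 91 in untreated cells (0.819, 0.594 to 1.13). Of 1501 other genes with reads within 2-fold, 2.40% had a ratio as low. Ddit3, a pro-apoptotic factor, had 37 reads in IL-10-treated cells and 52 in untreated cells (0.717, 0.457 to 1.11). The pseudokinase gene Trib3 had 15 in treated and 21 in untreated cells (0.720, 0.345 to 1.46). The phosphatase subunit Ppp1r15a, which ends the translational arrest, had 35 in treated and 30 in untreated cells (1.18, 0.701 to 1.98), and its constitutive relative Ppp1r15b had 10 in treated and 7 in untreated cells, under the minimum. Wfs1, an ER membrane protein that restrains Atf6, had 544 reads in IL-10-treated cells and 509 in untreated cells (1.08, 0.952 to 1.22).

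Xbp1 had 239 reads in IL-10-treated cells and 225 in untreated cells (ratio 1.07, 0.888 to 1.29). The active factor arises only when IRE1 removes a 26-base stretch from the Xbp1 messenger, between a pair of CNGCAG motifs. That stretch is in capitals in the sequence that follows (GENCODE M21), and its removal lengthens the reading frame to 371 codons, against 267 with it. The shortest junction listed in either library spans 52 bases, so these lists cannot show whether the stretch was removed.
Xbp1 stretch: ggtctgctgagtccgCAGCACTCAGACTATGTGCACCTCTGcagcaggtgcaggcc

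Promoters were searched for the elements by which the response acts, over the 250 bases before the start and on both strands. The RefSeq table held a promoter for 38 of the 45 genes, of 32851 promoters in all. ERSE, searched as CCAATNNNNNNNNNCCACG, was in 9 of the 38 (23.7%) and in 0.113% of all promoters. The matches are shown because this element is the textbook route by which the response reaches chaperone genes, with CCAAT and CCACG in capitals.
Hspa5: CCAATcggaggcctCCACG
Calr: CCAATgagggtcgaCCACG
Hsp90b1: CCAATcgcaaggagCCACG
Canx: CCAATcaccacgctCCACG
Pdia6: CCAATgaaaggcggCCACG
Ero1lb: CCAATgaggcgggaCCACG
Dnajc3: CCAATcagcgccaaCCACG
Creld2: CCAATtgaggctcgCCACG
Syvn1: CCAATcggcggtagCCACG

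The 9 genes had ratios from 0.823 (Hspa5) to 1.14 (Syvn1), with intervals below 1 for Hspa5, Hsp90b1 and Pdia6 and intervals that included 1 for the other 6. Hsp90b1 held another match, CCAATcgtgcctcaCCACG, on the opposite strand. With the last base free, 13 promoters matched (34.2%, against 0.320% of all), adding Derl2, Herpud1, Pdia3 and Pdia4. ERSE-II, an ATTGG and a CCACG 1 base apart, was found in Herpud1 alone of the 38, as ATTGGgCCACG, and in 10 of all promoters (0.0304%). UPRE, as TGACGTGG, was in none of the 38 and in 0.563% of all promoters. The amino acid response element CARE was searched only as TGATGNAAT, which was in none of the 38 and in 0.816% of all promoters. Forms of CARE with another last base were not searched, so its absence from these promoters is not shown. A match is a description of the sequence and not a measured site. The promoter of Hspa5 (chr2:34771840-34772089, plus strand) and that of Herpud1 (chr8:94386179-94386428, plus strand) are given with ERSE and ERSE-II in capitals, since these genes lay on opposite sides of 1 with a stress element each.
Hspa5 promoter: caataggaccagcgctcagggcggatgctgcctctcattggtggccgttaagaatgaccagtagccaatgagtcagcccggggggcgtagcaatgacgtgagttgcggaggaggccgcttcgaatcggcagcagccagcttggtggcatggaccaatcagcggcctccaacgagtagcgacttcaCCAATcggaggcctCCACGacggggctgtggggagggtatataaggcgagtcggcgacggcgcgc
Herpud1 promoter: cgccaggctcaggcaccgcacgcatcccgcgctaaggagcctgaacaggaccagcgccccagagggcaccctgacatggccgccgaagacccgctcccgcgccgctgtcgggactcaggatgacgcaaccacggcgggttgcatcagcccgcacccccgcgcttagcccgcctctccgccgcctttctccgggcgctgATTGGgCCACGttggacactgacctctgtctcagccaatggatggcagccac

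No difference in splice site use was called in these genes. At 57 donor or acceptor sites of 22 genes with at least 20 reads in each library, none of 125 junctions differed by 20 points with intervals apart, against 27 of 20246 over all genes (0.133%). An unannotated acceptor of Atf6, 3 bases past the annotated one (chr1:172717589-172718738, mm9), took 13 of 74 reads (17.6%, 9.70 to 28.2) in IL-10-treated cells and 1 of 51 (1.96%, 0.0496 to 10.4) in untreated cells. A cassette exon of Ganab gave opposite directions on its sides. The junction out of it took 7 of 34 reads at the shared acceptor (20.6%, 8.70 to 37.9) in treated cells and 1 of 23 (4.35%, 0.110 to 21.9) in untreated cells, and the junction into it took 0 of 27 at the shared donor (an interval of up to 12.8%) in treated cells and 2 of 25 (8.0%, 0.984 to 26) in untreated cells. Each pair of intervals overlapped. The join is shown for Atf6 with the 3 bases between the acceptors in capitals, beside a like pair in Sec63, where the later acceptor took 2 of 39 reads in IL-10-treated cells and 2 of 28 in untreated cells.
Atf6 join: aaccactagcatcagTAGgaattctgggag
Sec63 join: cccacagaagacgggCAGagtgatgccaac

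A 165-base exon of Os9 was skipped in 42 of 69 reads at the shared donor (60.9%, 48.4 to 72.4) in IL-10-treated cells and in 50 of 74 (67.6%, 55.7 to 78.0) in untreated cells. Counted at the shared acceptor, the share was 42 of 101 (41.6%, 31.9 to 51.8) in IL-10-treated cells and 50 of 111 (45%, 35.6 to 54.8) in untreated cells, so both forms were present in both libraries. A nearer donor of Edem1 took 6 of 231 reads (2.6%) in IL-10-treated cells and 8 of 220 (3.64%) in untreated cells. The Os9 exon is printed because it is the stretch that differs between the forms.
Os9 exon: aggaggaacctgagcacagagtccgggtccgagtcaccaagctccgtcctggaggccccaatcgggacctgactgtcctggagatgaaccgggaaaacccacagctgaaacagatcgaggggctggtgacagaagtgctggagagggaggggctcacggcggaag

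**Figure D4:**
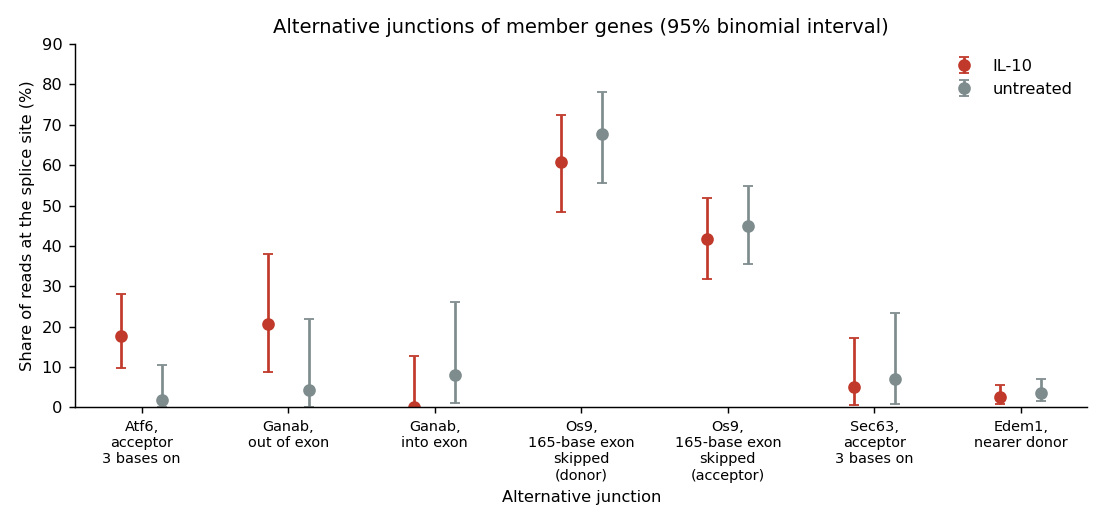
Share of the reads at a splice site, in percent, that used the alternative junction of 5 genes, with both sides of the exons of Ganab and Os9 and 95% binomial intervals, for IL-10-treated cells (red, left) and untreated cells (grey, right). The intervals of the libraries overlap at each junction.

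Other genes of these pathways were counted from lists made by pathway, which do not hold every gene of a family. Earlier results of these data were known when the lists were chosen. Of 30 measured ER folding enzymes outside the 45 genes, none was called (1.75% of all genes were called higher and 1.5% lower), 2 had an interval above 1 (12.9% of all genes) and 8 below (13.1%), and the median log2 ratio was -0.12. The ER chaperone gene Hspa13 had 97 reads in IL-10-treated cells and 145 in untreated cells (ratio 0.674, 0.516 to 0.877), and the thioredoxin-domain gene Txndc11 had 110 in treated and 79 in untreated cells (1.40, 1.04 to 1.90). Of 29 measured cytosolic and mitochondrial chaperones, 3 had an interval above 1 and 8 below, against the same shares of all genes, and the median was -0.13. The J-domain gene Dnajb4 was called lower there, with 11 reads in IL-10-treated cells and 31 in untreated cells (0.357, 0.162 to 0.731). Hspa4l had 128 in treated and 163 in untreated cells (0.791, 0.623 to 1.003) and Hspbp1 had 99 in treated and 125 in untreated cells (0.798, 0.607 to 1.05).

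Of 26 measured genes of the PERK-ATF4 and amino acid response list, which holds eIF2 kinases as well as targets of Atf4, 18 had a ratio over 1 (50% of all genes), 7 an interval above 1 (12.9% of all genes) and 2 one below (13.1%), with a median log2 ratio of 0.11. The amino acid transporter gene Slc7a5 had 106 reads in IL-10-treated cells and 63 in untreated cells (ratio 1.69, 1.23 to 2.35), and the stress factor gene Nupr1 had 268 in treated and 165 in untreated cells (1.64, 1.34 to 1.999). Of 27 measured ER stress factor and ER exit genes, 20 had a ratio over 1, 10 an interval above 1 and 2 one below, against the same shares of all genes, with a median of 0.19. The coat gene Sec24a had 182 reads in treated and 136 in untreated cells (1.35, 1.07 to 1.70), and the coat GTPase gene Sar1b had 172 in IL-10-treated cells and 231 in untreated cells (0.750, 0.612 to 0.918). Of 25 other degradation genes, 2 had an interval above 1 and 2 below (median -0.04), among them Ubxn8 with 65 reads in treated and 39 in untreated cells (1.68, 1.11 to 2.57), while Get4 had 77 in treated and 58 in untreated cells (1.34, 0.939 to 1.91). Of 26 other translocation genes, 2 had an interval above 1 and 5 one below (median -0.02), with Tram2 at 68 reads in treated and 37 in untreated cells (1.85, 1.22 to 2.84) and Spcs3 at 55 in treated and 89 in untreated cells (0.623, 0.436 to 0.881).

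**Figure D5:**
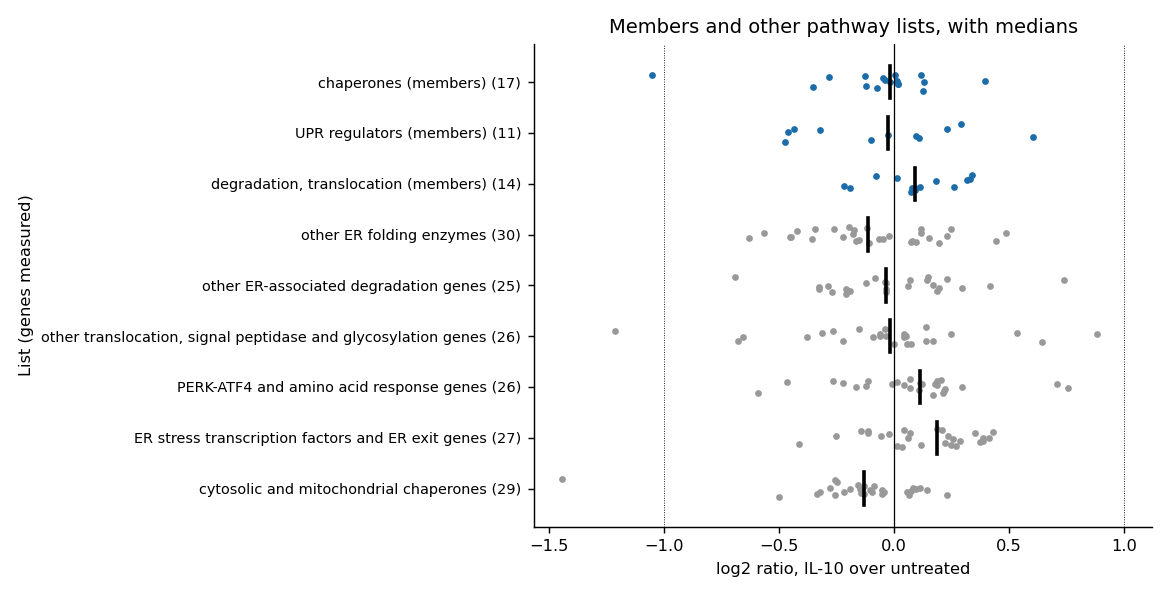
Log2 ratio (IL-10 over untreated) of each measured gene in the 45-gene set (blue) and in 6 other pathway lists (grey), with black bars at the medians. The median of the 27 ER stress factor and exit genes lies at 0.19 and that of the 29 cytosolic and mitochondrial chaperones at -0.13.

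Markers of other cells were counted in the same way as those of macrophages. Of 12 B and plasma cell markers, which would mark cells rich in ER chaperones, 4 were measured and the list summed to 719 reads in IL-10-treated cells and 782 in untreated cells. Most were on Cd22 (450 in treated and 497 in untreated cells), the plasma cell marker Sdc1 had 215 in treated and 221 in untreated cells and Ighm had 34 in treated and 42 in untreated cells, while Cd79a, Pax5, Mzb1 and Pou2af1 had no reads on matched introns in either library and Jchain had 0 in treated and 3 in untreated cells. Of 12 fibroblast and mesothelial markers 6 were measured, with 1395 reads in treated and 1243 in untreated cells (ratio 1.13, 1.05 to 1.22), led by Col1a2 (511 in treated and 419 in untreated cells). Among these 6, 3 had an interval above 1 (12.9% of all genes) and 1 had one below (13.1%), with a median log2 ratio of 0.37. No measured marker of the B and plasma cell or neutrophil lists had an interval that left out 1. Of 12 neutrophil markers 4 were measured, with 951 reads in IL-10-treated cells and 882 in untreated cells, led by Mmp9 (390 in treated and 380 in untreated cells), Csf3r (311 in treated and 267 in untreated cells) and Mmp8 (231 in treated and 221 in untreated cells), and S100a8, S100a9, Ly6g, Elane and Mpo had none on matched introns. A 0 of this kind can mean that no intron could be named: the widely expressed genes Tmed2 and Hspe1 and the macrophage marker Cd14 were also at 0. T and NK cell markers summed to 14 reads in treated and 2 in untreated cells, none of them measured, with Lck at 5 in treated and 1 in untreated cells. The part of the B and plasma cell, fibroblast and neutrophil markers in the ER gene ratios was not tested.

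Coverage along the transcripts bears on the smaller ratios. Of 463 introns of the 45 genes with at least 5 reads, 7 (1.51%) were listed in 1 library alone, against 3.61% of all such introns. Intron 27 of Uggt1 had 14 reads in IL-10-treated cells and 0 in untreated cells, and its intron 29 had 0 in treated and 8 in untreated cells. Intron 13 of Ern1 had 0 reads in treated and 7 in untreated cells, and the first intron of Sec63 had 13 in treated and 0 in untreated cells. On introns seen in both libraries, the ratio was 1.55 (1.27 to 1.89) for Ern1, and for Uggt1 it lay between 1.14 and 1.37 by its interval. It was 1.22 (1.07 to 1.40) for Sec63. Over 34 ER genes with at least 100 reads on each side of the middle of the gene, the log2 ratio of the 3' portion minus that of the 5' portion had a median of 0.13. Over 3392 genes it was 0.00 with an SD of 0.34, while 32 of the 42 ER genes lay within 0.32 of 0 between the libraries.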

How the data were processed

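Spliced reads were compared between 1 library of IL-10-treated and 1 of untreated mouse macrophages. TopHat and Cufflinks, without versions, and the build mm9 are named per the submitters' processing notes. Each deposited value is an unscaled count of reads across a splice junction, per the file headers, and the authors' Cufflinks values were not used here.

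Introns were named from GENCODE M21, whose build is later than mm9. Names were given by chromosome, strand and exact intron length, provided that 2 or more introns of a gene were displaced by one offset of up to 20 Mb. Of 131057 junctions, 106738 (81.4%, with 98.2% of reads) matched, and the offset of 44 of the 45 ER genes was also that of a neighbouring gene. Gene coordinates printed are those of the mm9 lists. Promoters and exon joins came from GRCm38.p6 (RefSeq) and GENCODE M21.

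A gene's reads were summed over its own introns and divided by the library's sum over single-gene introns (3837953 for IL-10, 3866130 for untreated). The ratio had an exact conditional binomial (Clopper-Pearson) 95% interval. Log2 ratios used a pseudocount of 0.5 reads. With 1 library per group no test across replicates was run. Reads are not independent molecules, so intervals cover counting error only, and whether the libraries came from separate animals is not given in the sources used here.

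Named were all 45 ER genes, each called gene of a list and its 2 genes with the largest absolute log2 ratio at 100 or more reads, the IL-10 response genes, and the marker with the most reads of each cell type. Other marker genes given, Tmed2 and Hspe1 were chosen after their values were seen. The genes and lists were chosen with earlier results of these data known. Alternatives included the TMM factor of edgeR and the size factor of DESeq2. The procedure was tested on simulated counts that held counting error alone, so the simulation says nothing on variation between animals or libraries. Analyses used Python 3.11.15 (numpy 2.4.6, scipy 1.17.1, pandas 2.3.3, matplotlib 3.10.9) and R 4.3.3 (edgeR 4.0.16, DESeq2 1.42.0).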

Additional observations from a re-analysis of the deposited data

Results flagged for a closer look

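The acceptor of Atf6 that the annotation lacks, 3 bases past the annotated one, was outside the sums over annotated introns. It had 13 reads in IL-10-treated cells and 1 in untreated cells, a ratio of 13.1 (1.97 to 557). Its shares of the reads at the donor, 17.6% in IL-10-treated cells and 1.96% in untreated cells, had intervals that overlapped. It was picked out of 74 unannotated junctions of these genes, which the gene values do not use, because its interval lay above 1. None of the 74 had the 20 reads over both libraries that were asked of a gene.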

How the results depend on the processing

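Of 596 recomputed values, pooled over all settings, 554 were graded the same. A count was so graded within 1.5-fold of the main count. The median of a class was so graded between the medians of its genes' lower and upper bounds. Single genes were graded by direction, side of the threshold and counting error. Scaling by the TMM factor of edgeR or the size factor of DESeq2 changed no count of ER genes. Relative to the main scale these were 0.9996 (TMM) and 0.9994 (DESeq2), so they could hardly change a value. All 42 measured genes were graded the same under each, which raises the pooled 554. Of the 42, 27 were graded the same on the most covered intron, 33 on the 5' portion and 33 on the 3' portion. When a gene was read from its most covered intron, 2 genes were called lower (Sdf2l1, and Eif2ak3 at a log2 ratio of -1.25) and 3 had an interval above 1. On the introns of the 5' portion, 4 genes had an interval below 1. On those of the 3' portion, 0 were called lower, with Sdf2l1 at a log2 ratio of -0.79. At a fold of 1.5, 1 gene was called higher, and at a log2 fold of 0.32, 4 were called higher and 3 lower. With a 99% interval, 5 genes lay below 1. Without Atf4, the regulator with the most reads, the summed ratio of the regulators was 1.10. It depends on the gene left out, and no sum without Ern1 is given. The causes were not tested. The median log2 ratio ranged from -0.06 to 0.11 over all measured ER genes, from -0.08 to 0.00 over chaperones and from -0.09 to 0.11 over regulators. Of 15 genes with an interval that left out 1, 13 kept their sign in every setting. The exceptions were Hsp90b1 (-0.24 to 0.11) and Pdia6 (-0.51 to 0.09). The use of introns seen in both libraries and the placing of lone introns were added after the data were seen. No paired analysis was possible because each group had 1 library, and for the same reason none could be left out. Depth limits genes such as Trib3 and Ddit3, whose intervals span more than 2-fold.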
